A study of Mus musculus with 3 samples.

Results

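The cells described here were the *Col1a1*-richest fibroblasts of mouse skin wounds 14 days after injury. They were chosen by measured values: a Day 14 barcode with at least 2000 UMIs (molecular tags, counted once for each mRNA captured) and at most 10% mitochondrial UMIs was gated as a fibroblast when 8 fibroblast genes (*Dcn*, *Lum*, *Pdgfra*, *Col6a1*, *Col6a2*, *Col5a1*, *Pcolce* and *Col1a2*) made up at least 1.5% of its UMIs and 4 myeloid genes (*Lyz2*, *Tyrobp*, *Fcer1g* and *S100a9*) less than 0.3%. A gated cell was a high-*Col1a1* cell when *Col1a1* alone took at least 9% of its UMIs. This selected 725 of 7196 gated Day 14 cells, or 10.1% (95% binomial confidence interval, Clopper-Pearson, 9.39% to 10.8%). The other 6471 gated cells were the reference. The whole series held 44693 barcodes in 3 libraries.

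All animals were adult male C57BL/6J mice, an inbred laboratory strain, with no transgene or treatment beyond the wound, and skin was taken on Days 3, 7 and 14. Each day was 1 droplet-based single-cell library of unsorted cells from wound tissue pooled over several wounds, so no difference between days had a replicate, and within Day 14 the compared cells came from the same library. All differences below are therefore descriptions without a test, and intervals (exact Poisson for levels, exact binomial for shares and ratios, 95%) cover counting error only. The cells had been dissociated, so whether they lay in the scar was not measured. The Day 3, 7 and 14 libraries held between 38133650 and 120940799 UMIs. Pairs of libraries shared between 19 and 111 barcode sequences, and 6 of the 725 cells had a barcode also seen on another day (5 on Day 7 and 1 on Day 3). Of the 725 cells, 67 fell in a cluster of low depth and high mitochondrial share, numbered 15, and counts of genes are also given without it.

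Type I collagen, the main fibre-forming protein of dermis and scar, is a triple helix of chains encoded by *Col1a1* and *Col1a2*, and type III collagen, encoded by *Col3a1*, is laid down with it in granulation tissue. Procollagen chains are hydroxylated and folded in the endoplasmic reticulum (ER) by dedicated enzymes and chaperones, carried out in enlarged coat protein complex II (COPII) vesicles, trimmed by proteinases and cross-linked outside the cell. Interleukin 1 (IL1) signals through the receptor *Il1r1* and its accessory chain *Il1rap* to nuclear factor kappa B (NF-kB) and chemokine genes, in fibroblasts among other cells.

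*Col1a1* (GRCm38/mm10, chr11:94936224-94953042, + strand), *Col1a2* (chr6:4504814-4541544, +), *Col3a1* (chr1:45311538-45349706, +) and *Il1rap* (chr16:26581704-26730117, +) are the genes given as markers of these cells (positions from GENCODE). The 250 bases before the RefSeq start site are printed for those in the promoter set used, which lacked *Col1a1* (GRCm38.p6, + strand, 5′ to 3′). The levels of these genes followed the *Col1a1* share in different ways, and whether the sequences bear on this was not tested. Capitals mark 3 short motifs found on either strand. These were the CCAAT box, with those letters, then the GC box, read as GGGCGG, and last the TATA box, read as TATAAA. *Il1rap* and *Col1a2* start at other bases in GENCODE, so the *Col1a2* window lies inside the gene span given above.
Col1a2: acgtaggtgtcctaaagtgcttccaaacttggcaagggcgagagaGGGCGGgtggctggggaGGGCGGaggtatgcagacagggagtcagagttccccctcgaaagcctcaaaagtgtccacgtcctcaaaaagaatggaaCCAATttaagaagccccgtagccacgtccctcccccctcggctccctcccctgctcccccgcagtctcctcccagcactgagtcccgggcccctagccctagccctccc
Col3a1: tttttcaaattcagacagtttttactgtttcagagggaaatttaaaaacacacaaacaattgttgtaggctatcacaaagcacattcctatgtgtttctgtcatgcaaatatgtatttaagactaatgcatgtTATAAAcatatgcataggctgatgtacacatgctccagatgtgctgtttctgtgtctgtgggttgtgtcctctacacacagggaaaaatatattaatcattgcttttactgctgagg
Il1rap: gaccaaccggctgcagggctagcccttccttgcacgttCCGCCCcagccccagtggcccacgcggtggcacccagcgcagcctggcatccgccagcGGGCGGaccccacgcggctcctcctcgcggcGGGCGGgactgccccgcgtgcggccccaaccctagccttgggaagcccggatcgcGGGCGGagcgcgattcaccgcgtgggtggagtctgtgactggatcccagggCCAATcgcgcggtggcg
The *Col1a2* window (chr6:4505368-4505617) held 1 CCAAT, 104 bases before the start, and 2 GGGCGG. The *Col3a1* window (chr1:45311288-45311537) held neither and 1 TATAAA, and the *Il1rap* window (chr16:26581455-26581704) held 1 CCAAT and 4 GGGCGG. GC content was 62.0%, 35.2% and 74.4%. Of 32851 RefSeq promoter windows of this length, 33.8% held CCAAT, 32.7% GGGCGG and 12.4% TATAAA. These are matches of letters only.

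The *Col1a1* share of UMIs in gated Day 14 cells had a median of 4.45%, a 75th percentile of 6.09%, a 90th percentile of 9.04% and a maximum of 29.7%. The threshold of 9% thus fell on a continuous upper tail. On Day 7 the median was 3.89% and 27 of 6722 gated cells (0.402%, 0.265% to 0.584%) reached 9%. On Day 3 the median was 2.37%, the maximum 5.26%, and 0 of 367 gated cells reached 9%, and the limit that a count of 0 allows, taken as 3 counts, is a share of 0.817%.

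**Figure D1:**
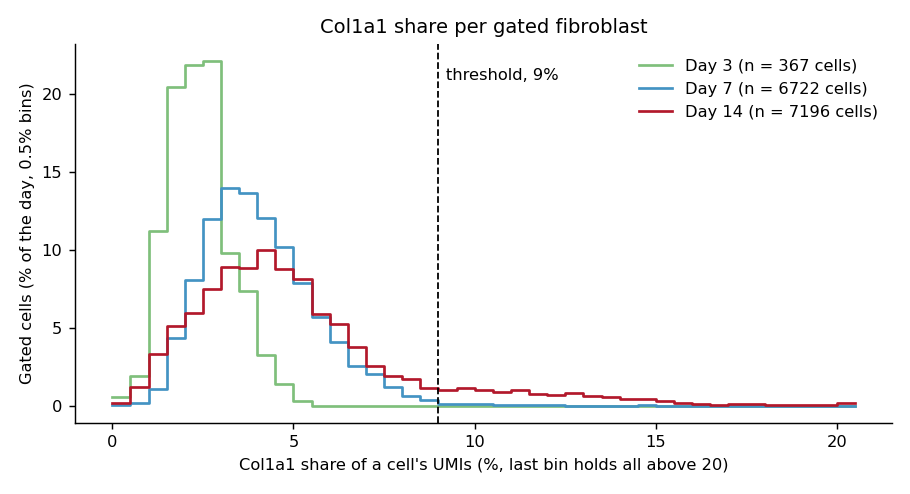
*Col1a1* share of each gated fibroblast's UMIs (x axis, %, bins of 0.5%) against the share of that day's gated cells (y axis, %), with 1 line per day and the threshold of 9% dashed. The Day 14 line has a long tail to the right of the threshold that holds 725 cells, the Day 7 line holds 27 cells there and the Day 3 line 0.

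The high-*Col1a1* cells had a median of 11371 UMIs (quartiles 7327 and 14778) against 10494 (7536 and 13694) in the reference, and 2523 detected genes against 2781. Without collagen genes the order of depth was reversed, with a median of 8381 UMIs against 9193. Collagen genes took a median of 25.3% of their UMIs against 12%. The median mitochondrial share was 1.83% against 1.54%, and the median share of ribosomal protein genes 7.44% against 11.1%. Since the selection fixed a high collagen share, levels are given as UMIs per 1000000 non-collagen UMIs (UPM), with the UMIs of 44 collagen genes left out of the totals (6150303 in the high-*Col1a1* cells and 62126358 in the reference). On totals of all UMIs every log2 ratio is lower by 0.24.

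Of the 4 marker genes, *Col1a1* was used for selection and *Col1a2* by the gate. Their levels were 159798 and 127290 UPM in the high-*Col1a1* cells and 50660 and 41779 in the reference, log2 ratios of 1.66 and 1.61. *Col1a1* outnumbered *Col1a2* by a per-cell median of 1.28 UMIs to 1 in the high-*Col1a1* cells (quartiles 1.13 and 1.51) and 1.23 (1.09 and 1.44) in the reference. The UMI ratio of the type I collagen chains was thus nearly the same in both groups, but both genes were used by the rule. *Col3a1* was higher by only 0.46 on the log2 scale (52178 against 37989), so the per-cell ratio of *Col3a1* to *Col1a1* UMIs had a median of 0.315 in the high-*Col1a1* cells (quartiles 0.273 and 0.378) and 0.768 (0.615 and 0.938) in the reference. The denominator of this ratio was the gene selected on. *Il1rap* was at 93.5 (86.0 to 101) against 21.1 (19.9 to 22.2), a log2 ratio of 2.15 (2.01 to 2.29). Of these genes *Col3a1* was within the fold of 1.5 used here, and *Il1rap* was too (log2 0.48) against a reference weighted to clusters, described with the counts of genes.

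Just inside the threshold (*Col1a1* 9% to 10% of UMIs, 153 cells) and just outside it (8% to 9%, 204 cells), *Col1a2* stood at 99284 and 85215 UPM, *Col3a1* at 45622 and 50015, *Il1rap* at 70.8 and 53.9, *Ndufa4l2* at 636 and 394, and *Cxcl1* at 635 and 1423. Across the whole range of the *Col1a1* share, *Col1a2* was higher in each successive bin, from 13292 below 2% to 179501 at 15% and above. *Col3a1* instead climbed to 52847 in cells of 7% to 8%, was lower at 9% to 10%, and reached 71656 at 15% and above. *Il1rap* was between 16.0 and 21.5 in all bins below 6% and reached 100.4 at 10% to 12%.

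**Figure D2:**
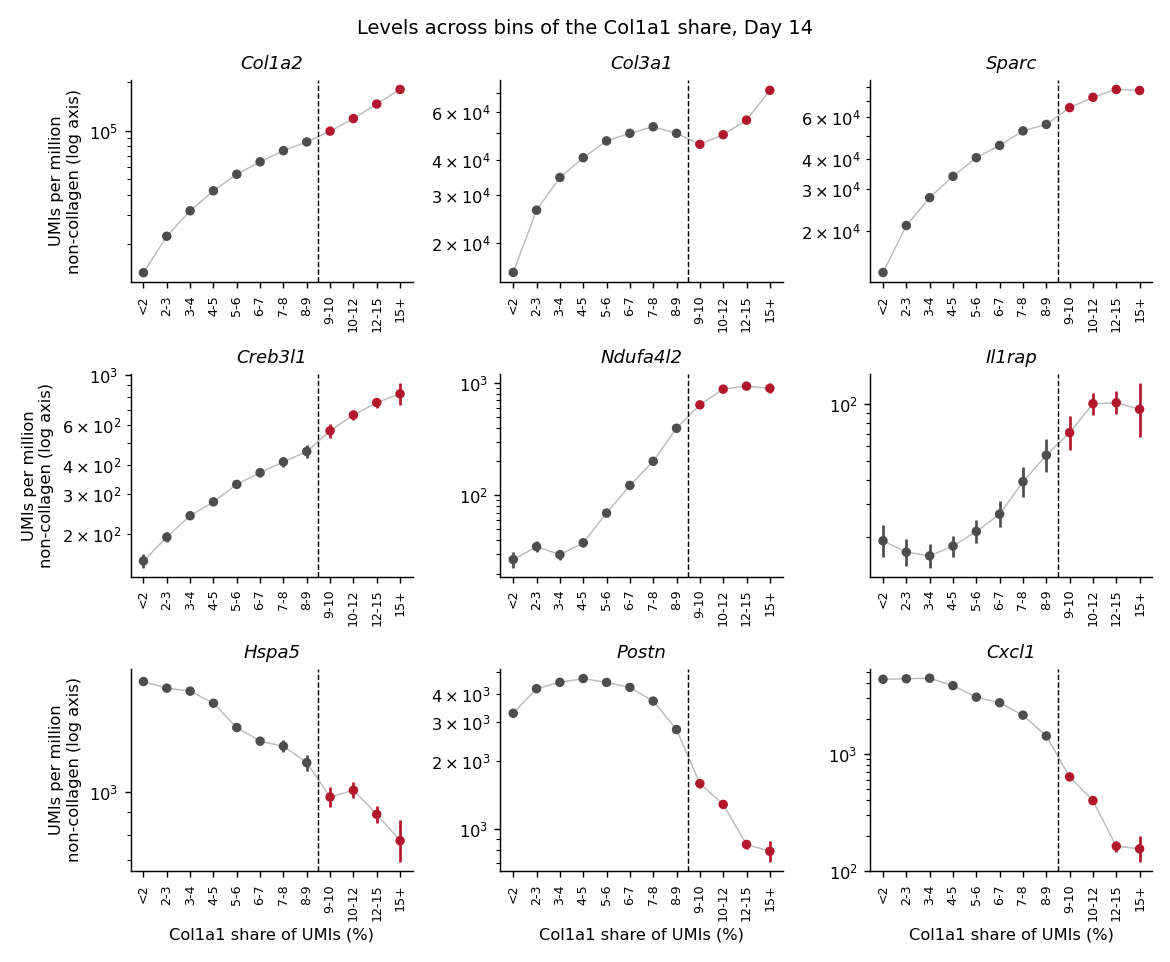
Levels of 9 genes (y axes, UPM, log scale) in gated Day 14 cells binned by *Col1a1* share (x axes, %), with 95% Poisson intervals, the threshold dashed and the high-*Col1a1* cells in red. *Col1a2* and *Creb3l1* climb in every bin, *Il1rap* and *Ndufa4l2* climb mainly above 5%, and *Postn* and *Cxcl1* drop over the bins next to the threshold.

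Over the 7454 non-collagen genes with a pooled level of at least 10 UPM, 433 (5.81%) were at least 1.5-fold higher in the high-*Col1a1* cells and 1136 (15.2%) at least 1.5-fold lower. These shares are the background for the gene groups below, and the median log2 ratio of all 7454 genes was -0.14. On totals of all UMIs the split moved to 236 higher and 2022 lower, that is from 27.6% to 10.5% higher among called genes. A cluster-weighted reference, in which reference cells were weighted so that the clusters described further on had the same shares as among the high-*Col1a1* cells, gave 146 higher and 576 lower. Clusters 6, 9 and 15 held 52.4%, 22.8% and 9.24% of the high-*Col1a1* cells but 2.09%, 2.86% and 0.572% of the reference cells. Most of the weight of this reference thus lay on few cells, and ratios against it are given without intervals. Of the 404 genes followed under each setting, 66 were called higher and 24 of these also against the cluster-weighted reference, and 125 were called lower and 66 of these also against it. The rule used this contrast, so nothing is read from these counts themselves.

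Among the other fibril-forming chains of the fixed collagen list, the main type V chains differed little between the groups. *Col5a1*, a gate gene whose product starts fibrils, stood at 1701 against 1676 UPM and *Col5a2* at 1784 against 1828. Over the bins of the *Col1a1* share *Col5a1* went from 971 below 2% to 2099 at 7% to 8%, 1563 at 9% to 10% and 2157 at 15% and above, and *Col5a2* from 1224 to 1999, 1671 and 2097. The third type V chain, *Col5a3*, was lower by 1.88 on the log2 scale (126 against 466). Of 8 fibrillar chains counted, 2 were at least 1.5-fold higher, namely *Col1a1* and *Col1a2* themselves, and 3 lower. Of 15 other collagen chains, 2 were higher, namely *Col16a1* (543 against 234, log2 1.21) and *Col15a1* (580 against 279, log2 1.06), both found near basement membranes and fibrils, though *Col15a1* had 0.52 against the cluster-weighted reference. The 6 that were lower were *Col6a3*, *Col6a5*, *Col6a6*, *Col8a1*, *Col12a1* and *Col14a1*, with log2 ratios from -2.30 to -0.89, *Col6a3* having -0.21 and *Col14a1* -0.48 against the cluster-weighted reference. *Col14a1* and *Col12a1*, whose products bind the fibril surface, stood at 609.6 against 1638 and 56.1 against 194. The fibrillar list had a median log2 ratio of -0.01, and 0.30 against the cluster-weighted reference.

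Genes that fold and hydroxylate procollagen in the ER went both ways. Of 18 counted, 5 were at least 1.5-fold higher and 2 lower, with a list median of 0.33. The higher ones were *Fkbp10* (log2 1.03) and *Fkbp9* (0.93), prolyl isomerases of the ER, *P4ha2* (0.90), a prolyl 4-hydroxylase subunit, and *Plod1* (0.87) and *P3h4* (0.94), which serve lysyl hydroxylation of the helix. *Serpinh1*, the collagen chaperone HSP47, stood at 4233 against 2829 (log2 0.58), just under the fold used. The lower ones were *Plod2*, the lysyl hydroxylase of the telopeptides (12.4 against 102, log2 -3.05), and *P4ha3* (5.69 against 27.7, log2 -2.28). On totals of all UMIs 5 were higher and the list median was 0.09, and against the cluster-weighted reference 4 were higher, *P4ha2* not among them (0.55), and 1 lower, *P4ha3* having -0.40.

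Several general ER chaperones were lower in these cells. *Hspa5*, the main HSP70 chaperone of the ER, stood at 946 against 1563 UPM (log2 -0.72, -0.76 to -0.69), *Hsp90b1* at 550.5 against 869.8 (log2 -0.66), *Calr* at 284 against 484 (log2 -0.77) and *Pdia6* at 166 against 296 (log2 -0.84). The per-cell level of *Hspa5*, per 10000 non-collagen UMIs, had a median of 8.28 (quartiles 5.49 and 12.6) against 13.6 (9.39 and 19.2), and 79.2% of high-*Col1a1* cells lay below the reference median. Of 26 genes of the chaperone and unfolded protein response list, 8 were at least 1.5-fold lower and 1 higher (*Eif2ak3*, the ER stress kinase PERK, log2 0.70), with a median of -0.26. On totals of all UMIs the counts were 12 and 0. Against the cluster-weighted reference they were 2 and 0, and *Hspa5* had -0.39, *Hsp90b1* -0.37, *Calr* -0.46, *Pdia6* -0.47 and *Eif2ak3* 0.33. The 26 genes of the translocon and signal peptidase list, which thread all secreted proteins into the ER, had a median of 0.12, with 1 (*Ssr1*, log2 0.84) past the fold upward and 0 downward, and on totals of all UMIs a median of -0.12. *Ssr1* had 0.43 against the cluster-weighted reference.

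Export genes had a list median of 0.44 with 4 of 19 higher and 1 lower. *Creb3l1*, an ER-bound transcription factor known to act on type I collagen genes, stood at 682 (661 to 703) against 276 (272 to 280), log2 1.30, and climbed in every bin of the *Col1a1* share from 152 to 823. Its relative *Creb3l2* was lower (47.0 against 81.5). *Mia2*, *Sec24d* and *Kdelr2*, which act in cargo loading, the COPII coat and retrieval to the ER, were higher by 0.63, 0.61 and 0.61. On totals of all UMIs only *Creb3l1* of these 4 stayed past the fold, and 1 of the list was lower. Weighted to clusters, *Mia2* had 0.28, *Sec24d* 0.21, *Kdelr2* 0.38 and *Creb3l2* -0.29. For the supply of proline and glycine, the most frequent residues of collagen, 6 of 16 genes on the list were higher, namely *Mthfd2* (log2 1.22), *Shmt2* (0.92), *Aldh18a1* (0.70), *Pycr1* (0.66), *Gars* (0.70), the glycyl-tRNA synthetase, and *Lars2* (0.65), the mitochondrial leucyl-tRNA synthetase, which supplies neither residue, and *Glul*, glutamine synthetase, was lower (-0.70). Their median was 0.38, on totals of all UMIs 2 were higher and 3 lower, and against the cluster-weighted reference none was past the fold in either direction.

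Of 10 genes for procollagen cleavage and cross-linking, 5 were higher and 3 lower. The 5 included *Pcolce*, a gate gene, whose log2 ratio of 0.586 was barely past the fold. *Pcolce2*, an enhancer of the C-proteinase, stood at 856 (833 to 879) against 182 (178 to 185), log2 2.24, and *Adamts2*, the N-proteinase, at 1148 against 487, log2 1.24. *Loxl4* and *Lox*, lysyl oxidases, were higher by 2.01 and 0.60, whereas their relatives *Loxl1* (305 against 649) and *Loxl3* (5.37 against 28.6) were lower, as was the transglutaminase *Tgm2*. The ratio of *Loxl4* was 0.07 and that of *Loxl1* -0.36 against the cluster-weighted reference. *Lox* had 0.36 on totals of all UMIs, 0.40 weighted to clusters and 0.10 against only those reference cells with *Col1a1* at 5% to 9%. The list had 3 higher and 3 lower on totals of all UMIs, and 3 and 2 weighted to clusters. *Bmp1*, the C-proteinase itself, was at 315 against 283 (log2 0.16).

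**Figure D3:**
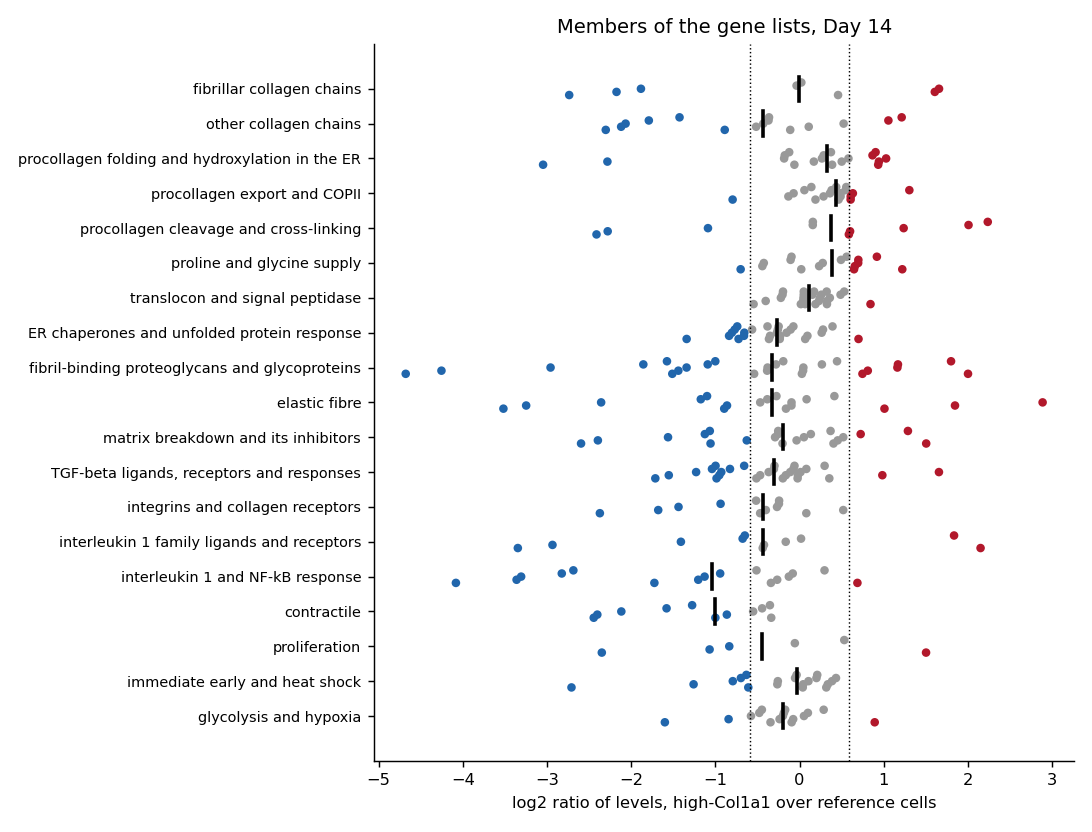
log2 ratio of levels, high-*Col1a1* over reference cells of Day 14 (x axis), for each counted member of 19 gene lists (rows), with the list median as a black bar, dotted lines at 1.5-fold, and points past them in red (higher) or blue (lower). The medians of the folding, export, cleavage and proline lists lie between 0.33 and 0.44, those of the IL1 response and contractile lists at -1.04 and -1.0.

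Other matrix genes separated strongly. *Sparc*, which encodes a collagen-binding glycoprotein, stood at 73283 (73069 to 73497) against 32735 (32690 to 32780), log2 1.16, and its per-cell level was above the reference median in 88.3% of high-*Col1a1* cells. *Tgfbi* (log2 2.0), *Podn* (1.80), *Ecm2* (1.17), *Prelp* (0.81) and *Lum* (0.75, a gate gene) were also higher. *Postn* (1177 against 4260, log2 -1.86), *Tnc* (26.7 against 207, log2 -2.96), *Fn1* (970 against 2066, log2 -1.09) and *Vcan* (288 against 576, log2 -1.0), matrix genes of granulation tissue, were lower, and *Postn* was below the reference median in 86.9% of the cells. In total 6 of 26 proteoglycan and glycoprotein genes were higher and 10 lower, and 3 and 7 against the cluster-weighted reference, where *Podn* had 0.47, *Ecm2* 0.36, *Prelp* 0.38, *Lum* 0.40 and *Fn1* -0.04. Among 18 elastic fibre genes 3 were higher (*Ltbp2* by 2.89, *Ltbp1* by 1.85 and *Mfap4* by 1.01 on the log2 scale) and 7 lower, led by *Mgp*, an inhibitor of calcification (138 against 1585, log2 -3.52), and *Mfap5*, a microfibril gene (181 against 1724, log2 -3.25). *Mfap5* had a per-cell median of 0 against 14.1 per 10000 non-collagen UMIs. *Eln* itself was at 1721 against 1624. The cluster-weighted reference left 1 higher and 4 lower in this list, with *Ltbp1* at 0.24 and *Mfap4* at 0.13.

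For matrix breakdown, *Ctsk*, the collagen-degrading cathepsin, stood at 3249 against 1331 (log2 1.29) and *Timp2*, a metalloproteinase inhibitor, at 3667 against 2216 (log2 0.73), while *Timp1*, *Timp3* and *Fap* were lower by 1.56, 1.07 and 2.40. Of 21 genes 3 were higher and 7 lower, and weighted to clusters none was higher and 3 were lower, with *Ctsk* at 0.37, *Timp2* at 0.47, *Timp1* at -0.53 and *Timp3* at -0.40. *Mmp14*, the membrane collagenase, was at 907 against 663 (log2 0.45).

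Of 28 transforming growth factor beta (TGF-beta) genes, 2 were higher and 10 lower. The ligand *Tgfb2* stood at 378 (362 to 393) against 120 (117 to 123), log2 1.66. *Tgfb1* was at 15.6 against 19.2 (log2 -0.30, -0.61 to 0.00) and *Tgfb3* at 24.2 against 46.1. Among targets, *Ccn1* was higher (1185 against 599, log2 0.98), and *Ccn2* (44.4 against 130.3) and *Pmepa1* (167 against 391) were lower. The counts were 2 and 6 against the cluster-weighted reference, with *Ccn1* at 0.21 and *Tgfb3* at -0.31. Contractile genes had no member higher and 7 of 11 lower, including *Tpm1* (log2 -1.28), *Cald1* (-1.0) and *Actn1* (-2.44). The myofibroblast genes *Tagln* (-0.44) and *Acta2* changed sign between settings. *Tagln* ranged from -0.72 to 0.586, which is past the fold upward, and *Acta2* from -0.57 to 0.44. *Acta2*, the smooth muscle actin of myofibroblasts, had a summed level of 24.9 against 31.4, less than 1.5-fold apart, but it was seen in 3.59% of high-*Col1a1* cells and 10.3% of reference cells without thinning, and in 1.10% (0.478% to 2.16%) and 1.73% (1.43% to 2.08%) at 1000 non-collagen UMIs. At 3000, which 631 and 6221 cells reached, the shares were 1.58% (0.763% to 2.90%) and 4.24% (3.76% to 4.77%), beside 1.17% in 599 myeloid barcodes (0.294% at 1000). Its level in the high-*Col1a1* cells was 3.84 in cluster 6, 11.2 in cluster 9 and 120 in clusters other than these and 15, of the clusters described further on. Cluster 16, led by *Rgs5* and with *Acta2* and *Myh11* among its leading genes, held 8 high-*Col1a1* cells. On totals of all UMIs 10 of the 11 were lower, and weighted to clusters 4, with *Tpm1* and *Cald1* at -0.52.

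In the IL1 family, the receptor chains went in different directions. *Il1r1*, the signalling receptor, was at 64.2 (58.0 to 70.9) against 72.0 (69.9 to 74.1), log2 -0.16. *Il1r2*, which encodes a decoy receptor, was at 208 (197 to 220) against 58.3 (56.4 to 60.2), log2 1.84, and 0.36 weighted to clusters. *Il1rl1*, the IL33 receptor, was at 7.32 against 74.4 (log2 -3.35) and its ligand *Il33* at 24.4 against 187 (log2 -2.94). After thinning each cell to 1000 non-collagen UMIs, which kept all 725 and 6471 cells, *Il1rap* was seen in 9.10% (7.11% to 11.4%) of high-*Col1a1* cells and 2.30% (1.95% to 2.70%) of reference cells, and without thinning in 48.8% and 16.7%. In 681 Day 14 myeloid barcodes (the 4 myeloid genes at least 1.5% of UMIs and the 8 fibroblast genes under 0.3%, median depth 4625 UMIs) the thinned share was 1.47%. *Il1r1* and *Il1rap* were seen together in 19.2% of high-*Col1a1* and 7.90% of reference cells without thinning, and at 1000 UMIs in 0.690% (0.224% to 1.60%, 5 cells) and 0.0927% (0.0340% to 0.202%, 6 cells). At 3000 the shares were 2.22% (1.22% to 3.69%) and 1.45% (1.16% to 1.78%). Whether a cell with a UMI of both chains carries the receptor was not measured.

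Of 16 genes known to respond to IL1 and NF-kB, 9 were at least 1.5-fold lower and 1 (*Csf1*, log2 0.69, but -0.20 against the cluster-weighted reference) higher, with a list median of -1.04 beside the -0.14 of all genes, and 6 differed by less than the fold. Against the cluster-weighted reference 6 were lower and none higher, with a median of -0.34. *Cxcl1* and *Cxcl2*, neutrophil chemokines, stood at 359 (344 to 374) against 3688 (3673 to 3703) and 252 (239.9 to 265) against 2498 (2486 to 2511), log2 -3.36 and -3.31. *Ptgs2* (-2.69), *Ccl2* (-1.72), *Il6* (-1.2) and *Ccl7* (-1.13) were lower too, *Ccl2* and *Il6* having -0.56 and -0.26 weighted to clusters. The inhibitors *Nfkbia*, *Nfkbiz* and *Tnfaip3* differed by less than 1.5-fold, with log2 ratios from -0.34 to -0.13. *Cxcl1* lay below the reference median in 95.2% of high-*Col1a1* cells. Immediate early and heat shock genes, which enzymatic dissociation is known to induce, had a median of -0.03, with 0 of 19 higher and 6 lower, and 0 and 2 weighted to clusters, and *Fos* stood at 2608 against 2269.

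By size of the ratio among 2772 non-collagen genes with a pooled level of at least 50 UPM and 10 UMIs in each group, *Ndufa4l2*, a hypoxia-inducible relative of a mitochondrial complex subunit, led with 840.0 (817 to 863) against 67.3 (65.2 to 69.3), 12.5-fold or 3.64 on the log2 scale, and 0.75 weighted to clusters. It was seen in 46.6% of high-*Col1a1* cells and 5.81% of reference cells thinned to 1000 non-collagen UMIs, in 82.9% and 23.7% without thinning, and in 0.587% of thinned myeloid barcodes. *Serpina3n*, a secreted protease inhibitor (477 against 80.9), *Crispld2* (309.7 against 57.3), *Pcolce2* and *Tnmd*, the tendon gene tenomodulin (256 against 54.7), followed. The rest of the 15 highest were *Cgref1*, *Cldn10*, *Tgfbi*, *Cpz*, *Ctla2a*, *Ltbp1*, *Por*, *Il1r2*, *Cadm3* and *Podn*, with log2 ratios between 1.80 and 2.19. Of the 15, *Ltbp1* (0.24), *Por* (0.32), *Cadm3* (0.35), *Il1r2* (0.36), *Podn* (0.47) and *Ctla2a* (0.48) were inside the fold against the cluster-weighted reference, and the others had 0.59 to 1.13. The 15 lowest were led by *Ptn*, the growth factor pleiotrophin (15.4 against 455, log2 -4.88), *Thbs4* (4.23 against 108, -4.68), *Akr1c18*, *Dlk1* and *Cxcl9*, an interferon-induced chemokine (14.0 against 171, -3.61), and went on with *Mest*, *Mgp*, *Plac8*, *Cxcl1*, *Il1rl1*, *Igfbp4*, *Cxcl2*, *Mfap5*, *Gpc3* and *Lgals7* at -3.19 or below. Weighted to clusters *Lgals7* had -0.54, inside the fold, and the others -2.85 to -1.15, among them *Mgp* -1.82, *Cxcl1* -1.67 and *Mfap5* -1.47. The glycolysis and hypoxia list as a whole had a median of -0.19, with 1 of 16 higher (*Bnip3*, log2 0.89, and 0.03 weighted to clusters) and 2 lower, and 0 and 1 weighted to clusters.

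Among transcription factors of fibroblasts, 3 of 32 were higher and 9 lower, and against the cluster-weighted reference 0 and 4. *Osr2* (256 against 97.2, log2 1.40), *Twist2* (0.89) and *Twist1* (0.71) were higher, but against the cluster-weighted reference they had 0.23, -0.13 and 0.10, and *Twist1* had 0.47 on totals of all UMIs. In the other direction *Runx1* (-1.30), *Foxp1* (-1.79, and -0.52 weighted to clusters), *Ebf2* (-2.67) and *Dlk1*, a signalling protein that this list also holds, were lower. *Ccnd1*, cyclin D1, was higher (146 against 51.4, log2 1.5, and 0.05 weighted to clusters) while 3 of the 6 counted proliferation genes were lower (2 weighted to clusters). *Mki67* was seen in 1.24% of the cells against 2.72% without thinning. Thinned to 1000 non-collagen UMIs the shares were 0.138% (0.00349% to 0.766%, 1 cell) and 0.572% (0.403% to 0.787%, 37 cells), with overlapping intervals. Of 11 tendon and cartilage genes 4 were higher, *Tnmd* among them, and 6 lower, and weighted to clusters 2 and 5. Of 12 integrins and collagen receptors none was higher and 4 were lower, led by *Itga6* (-2.37, and -0.33 weighted to clusters).

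The gene whose per-cell level followed the *Col1a1* share most closely over the 7196 gated cells, among 2772 non-collagen genes of at least 50 UPM, was *Sparc* (Spearman's rho 0.74). *Cpz* (0.58), *Cldn10* (0.54), *Adamts2* (0.53), *Aebp1* (0.52), *Ctsk* (0.46), *Creb3l1* (0.45), *Serpinh1* (0.43), *Ndufa4l2* (0.43) and *Fkbp9* (0.42) came next, and *Igfbp4* (-0.39) and *Mfap5* (-0.35) were at the other end. For collagens the values were 0.93 for *Col1a2*, 0.72 for *Col3a1*, 0.39 for *Col5a1* and 0.27 for *Col5a2*. All points came from 1 library and share each cell's depth, so these values are descriptions. Of the 7454 genes, 387 were higher and 927 lower at every step over 6 successive ranges of the *Col1a1* share. These ranges were cut on the value that the rule used, so nothing is read from the counts.

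When all gated Day 14 cells were clustered without collagen genes, the 725 cells did not form a group of their own. Of 19 clusters, cluster 6 held 380 of them (73.8% of its 515 cells) and cluster 9 held 165 (47.1% of 350). Cluster 15 held 67 (64.4% of 104), and the remaining 113 were spread over 13 clusters, at most 32 in each. The leading genes of cluster 6 were *Gpha2*, *Gal* and *Wfdc12*, and those of cluster 9 were *C6*, *Tnmd* and *Igfbp3*, named here only to describe them. Among high-*Col1a1* cells, *Ndufa4l2* stood at 1176 in cluster 6, 549 in cluster 9 and 456 in the other clusters. *Ppp1r14a*, an inhibitor subunit of myosin phosphatase, stood at 399, 83.4 and 128, and *Tnmd* at 163, 466 and 188. *Sparc*, at 76568, 81078 and 57189, and *Pcolce2*, at 928, 997 and 493, were high in both main clusters. *Postn* was at 116 in cluster 6 but 1842 in cluster 9.

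Cluster 15 stood apart. Its high-*Col1a1* cells had a median of 3165 UMIs and 7.69% mitochondrial UMIs, against 11105 UMIs and 1.82% in cluster 6, and the cluster was led by mitochondrial genes. In them *Sparc* was at 18127, *Ndufa4l2* at 49.3 and *Postn* at 4792, closer to the reference than to the other high-*Col1a1* cells. Without cluster 15 the counts of genes were 435 higher and 1199 lower, and the share of gated cells past the threshold was 9.28%.

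**Figure D4:**
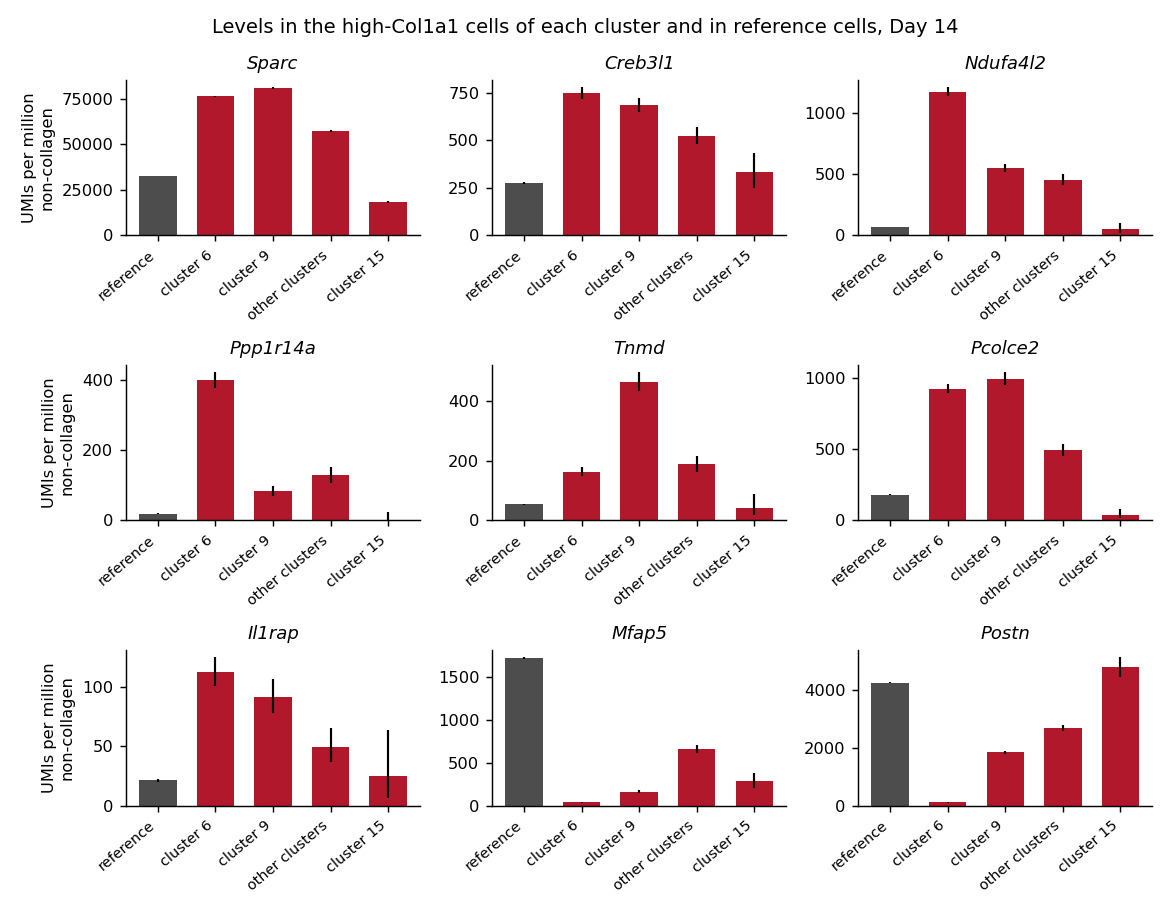
Levels of 9 genes (y axes, UPM, bars from 0, black lines 95% Poisson intervals) in reference cells (grey, n = 6471) and in high-*Col1a1* cells (red) of cluster 6 (n = 380), cluster 9 (n = 165), the other clusters (n = 113) and cluster 15 (n = 67). *Ppp1r14a* and *Ndufa4l2* are highest in cluster 6, *Tnmd* is highest in cluster 9, and in cluster 15 *Sparc* is at 18127 and *Postn* at 4792.

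Within clusters the contrast differed from cluster to cluster. In cluster 6 (380 against 135 cells) 4 of the 15 genes highest by size were at least 1.5-fold higher and 10 of the 15 lowest at least 1.5-fold lower, where 2.53% and 4.83% of the 2772 genes they were ranked among were past the fold in these directions. In cluster 9 (165 against 185 cells) the numbers were 10 and 11, beside 3.25% and 12.7% of the 2772. Cluster 10 (26 against 316 cells), led by *Cd74*, *H2-Eb1* and *H2-Ab1*, which serve antigen presentation, and with *Il1b* and *Mrc1* also among its leading genes, gave 15 and 14 beside 7.54% and 17.7%. Cluster 2 (32 against 962 cells) gave 7 and 6 beside 7.79% and 10.7%, and cluster 15 (67 against 37 cells) 8 and 6 beside 27.9% and 15.3%. The 30 genes had been ranked on these same cells, so nothing is read from their counts. Within cluster 6 *Ndufa4l2* differed by 0.38 (0.28 to 0.49) on the log2 scale, *Ppp1r14a* by -0.04 (-0.20 to 0.13) and *Il1rap* by 0.23 (-0.10 to 0.56). Within cluster 9 they differed by 2.49, 3.29 and 0.82 (0.45 to 1.2). *Tgfb2* was higher in both (1.34 and 1.27), as were *Creb3l1* (0.60 and 0.96) and *Col1a2* (0.96 and 1.14), and *Mfap5* (-1.60 and -1.78), *Mgp* (-2.44 and -2.39) and *Cilp* (-1.38 and -2.50) were lower in both. Against the cluster-weighted reference the log2 ratio of *Il1rap* was 0.48 in place of 2.15, that of *Il1r2* 0.36 in place of 1.84 and that of *Ndufa4l2* 0.75 in place of 3.64. *Sparc* had 0.69, *Creb3l1* 0.77 and *Tgfb2* 1.28. The clusters were made from non-collagen genes, though without *Il1rap*. *Ndufa4l2* was among the leading genes of cluster 6 and *Il1r2* among those of cluster 9. Weighting to clusters makes the ratios of such genes smaller by construction, so nothing is read from which ratios dropped.

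Both groups had been gated on fibroblast genes, so markers check the label only in part. Of 12 fibroblast markers, 7 of which were gate genes, 3 were higher and none lower, and *Pdgfrb* and *Prrx1* were at 166 against 122 and 436 against 430.4. The summed level of 11 macrophage markers was 568 against 542 UPM, and of these *Csf1r* was at 97.2 against 19.3 (log2 2.33), while *Lyz2*, *Tyrobp* and *C1qa* differed by less than 1.5-fold. *Lyz2*, *Tyrobp* and *Fcer1g* were limited by the gate in both groups. Endothelial markers summed to 20.6 against 33.5, pericyte markers to 94.0 against 97.4, T cell markers to 7.32 against 5.92, mast cell markers to 3.09 against 9.83, neutrophil markers to 2.11 against 0.95, adipocyte markers to 0.163 against 0.0966, skeletal muscle markers to 7.48 against 8.37, red blood cell markers to 2.28 against 10.7, melanocyte markers to 59.2 against 41.5 and Schwann cell markers to 570.4 against 371, nearly all of it *Pmp22*. Keratinocyte markers summed to 97.7 against 278, and all 5 counted were lower, but none was past the fold against the cluster-weighted reference. *Krt14* (9.43 against 45.8) moved with *Lgals7* (7.48 against 68.0), a gene of stratified epithelium. Cluster 14, whose leading genes include *Lgals7*, *Krt14* and *Krt5*, had 133 cells, all of them reference cells, and held 81.8% of the *Lgals7* UMIs and 64.6% of the keratinocyte marker UMIs of the reference. In reference cells outside it *Lgals7* was at 12.7, *Krt14* at 8.78 and the keratinocyte sum at 101 UPM. *Adipoq*, *Cxcr2* and *Myh4* were at 0 UMIs in the high-*Col1a1* cells.

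Fibroblast state markers, a list that follows the study and was partly chosen on these libraries, had 9 of 28 higher and 13 lower. *Ppp1r14a* (249 against 19.5, log2 3.67), *Pcolce2*, *Ctsk*, *Ecm2*, *Col15a1* and *Mfap4* were higher. Against the cluster-weighted reference 1 of the 28 was higher and 10 lower, and *Ppp1r14a* had 0.22. Marker genes of other Day 14 fibroblasts went both ways. After thinning to 1000 non-collagen UMIs, *Pi16* was seen in 5.10% (3.62% to 6.97%) of high-*Col1a1* cells against 24.0% (23.0% to 25.1%) of reference cells, *Cilp* in 18.3% against 27.3%, *C3* in 6.76% against 11.5% and *Cxcl9* in 1.24% against 8.10%. *Tnmd* was seen in 16.1% (13.5% to 19.0%) against 4.27% (3.79% to 4.79%). Unthinned, the shares were 23.4% against 59.2% for *Pi16*, 43.7% against 55.1% for *Cilp*, 27.4% against 31.3% for *C3*, 4.83% against 25.9% for *Cxcl9* and 40.1% against 16.8% for *Tnmd*. In the myeloid barcodes the thinned shares of these 5 genes were between 0% and 1.76%, and that of *Cxcl9* was 1.03%, close to its share in the high-*Col1a1* cells. Of the 9 candidate genes of the study, 6 were lower (4 weighted to clusters) and 1 (*C4b*, log2 0.71, but 0.47 on totals of all UMIs and 0.45 against reference cells with *Col1a1* at 5% to 9%) higher. *Itgbl1*, an integrin-like protein, was at 523 against 372 (log2 0.49, 0.44 to 0.54), under the fold used. Over the other settings its log2 ratio lay between 0.04 and 0.53. Below the threshold its level climbed with the *Col1a1* share, from 141 under 2% to 553 at 6% to 7%, and was 550 at 7% to 8%. In the Day 7 library, under the same rule, it was higher (281 against 97.6, log2 1.53, 1.08 to 1.94). There 4 of the 9 candidates were higher and 2 lower.

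The same rule in the Day 7 library found 27 cells with 166965 non-collagen UMIs in all, so a gene at 10 UPM gives 1.67 UMIs on average. At that level 1078 of 7917 genes (13.6%) were past the fold upward and 2179 (27.5%) downward, counts dominated by such sparse genes. Among the 1488 genes of at least 100 UPM, 152 (10.2%) were higher and 287 (19.3%) lower. Of the 1486 such genes also counted on Day 14, 79 were called higher and 259 lower on Day 14. On both days 45 were higher, which is 57.0% of those called higher on Day 14 and 29.6% on Day 7. A further 105 were lower on both, 40.5% and 36.8%. Among the genes lower on Day 14, 13 were called higher on Day 7, and 0 of those higher on Day 14 were called lower. *Sparc* stood at 49837 against 24093 (log2 1.05) on Day 7, *Pcolce2* at 222 against 57.1 (log2 1.96), *Ctsk* at 1863 against 613, *Mfap4* at 1000.2 against 351, *Il1rap* at 77.9 (41.5 to 133) against 16.0 (13 UMIs) and *Tnc* at 77.9 against 791. Of the 15 highest genes of Day 14, 14 were past the fold in the same direction on Day 7, the exception being *Ltbp1*, and of the 15 lowest 9 were. Several of these calls rest on few UMIs in the 27 cells. Among the 9, *Dlk1*, *Cxcl9* and *Mest* had 0 UMIs and were called against the floor, *Thbs4* had 3 and *Akr1c18* 4. Among the 14, *Tnmd* had 8. At least 10 UMIs were found for 13 of the 15 highest and 9 of the 15 lowest. A threshold of 7% gave 310 Day 7 cells, and 3.15% of 7917 genes were higher and 10.6% lower. With it, 9 of the 15 highest and 8 of the 15 lowest were past the fold in the same direction. There *Cpz* (log2 1.52), *Cgref1* (1.51) and *Ctla2a* (1.63) were higher and *Ndufa4l2* was at 108 against 73.2 (log2 0.56). *Mgp*, lower on Day 14, was at 361 against 169 (log2 1.09), and *Cxcl1* was at 2204 against 2358 (log2 -0.10). In the 27 cells of the 9% threshold *Cxcl1* was at 1707 against 2355 (log2 -0.46). The difference between the days was not tested.

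**Figure D5:**
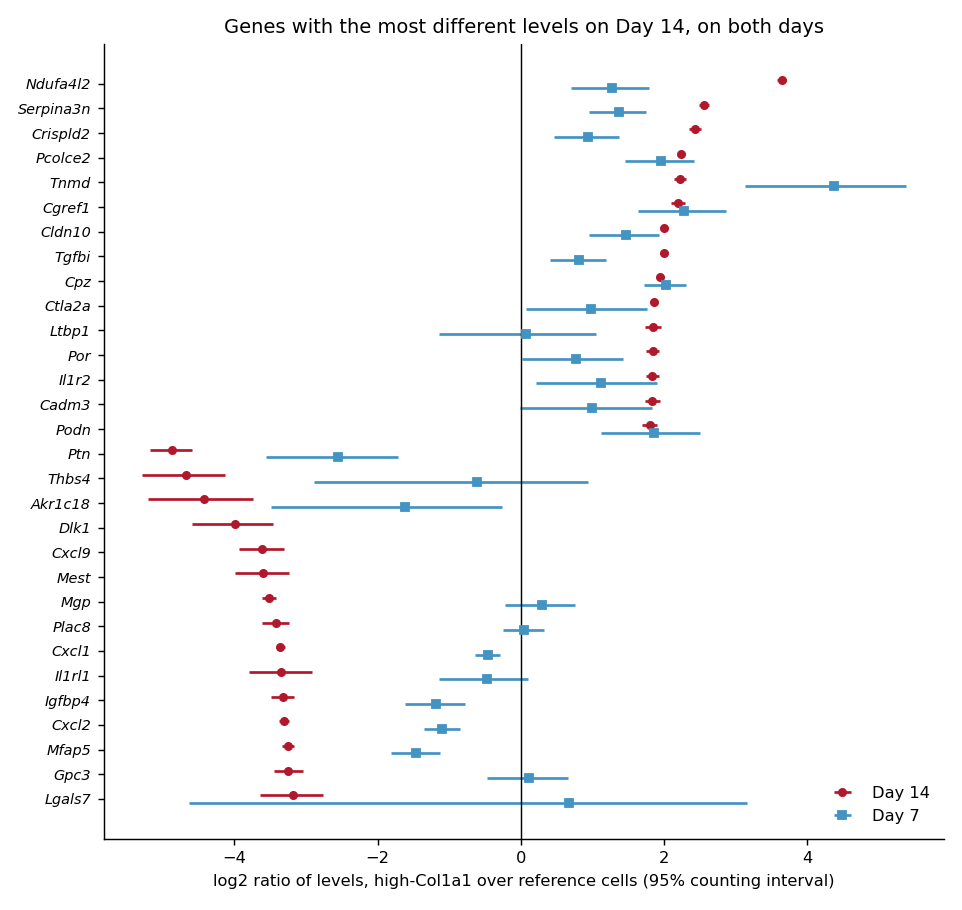
log2 ratio of levels, high-*Col1a1* over reference cells (x axis, 95% counting intervals), for the 15 highest and 15 lowest genes of Day 14 (rows) on Day 14 (red circles, 725 against 6471 cells) and Day 7 (blue squares, 27 against 6695 cells). All 15 highest genes are on the positive side on both days, with *Ltbp1* and *Cadm3* intervals reaching 0 or below on Day 7, and *Dlk1*, *Cxcl9* and *Mest* have no Day 7 point because they had 0 UMIs in the 27 cells.

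Levels in all gated cells of Day 3, where none reached the threshold, place these values. *Creb3l1* was at 752 on Day 3, 324 in the Day 7 reference and 276 in the Day 14 reference, so its level in the high-*Col1a1* cells (682) was under that of Day 3. *Sparc* went from 15011 on Day 3 to 24093 and 32735, *Ctsk* from 195 to 613 and 1331, and *Mfap4* from 38.0 to 351 and 1388. *Il1rap* was at 24.0, 16.0 and 21.1, each below its level in the high-*Col1a1* cells. The gated Day 3 cells were also deeper, with a median of 45643 UMIs and 6074 detected genes against 11371 and 2523 in the high-*Col1a1* cells. The days are 1 library each, so these are values of the libraries.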

How the data were processed

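Single-cell 3′ libraries of wound tissue were made on Days 3, 7 and 14, 1 per day. The authors deposited UMI counts per gene and barcode, made with Cell Ranger 6.0.0 against mm10 as given in the submitters' processing notes, with no normalization. Barcodes were gated, split by the *Col1a1* share and their counts summed, and levels were divided by the total of non-collagen UMIs and given per 1000000 of these (UPM). With 1 library per day, and cells that share it, no test was run. A gene was counted at a pooled level of at least 10 UPM and called at 1.5-fold, with a gene at 0 UMIs in 1 group set to a floor of 3 counts there and called only as lower in that group. Named genes were the members of fixed lists with the largest ratios or given by the study, the 15 highest and 15 lowest of those at 50 UPM or more, and the 10 most and 5 least correlated with the *Col1a1* share. Other list members were named for their role after their values were seen, as were the leading genes of clusters and the values with and without cluster 14. The cell rule and the gene lists were chosen with earlier results of these data known.

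Shares of cells with a UMI were computed after thinning each cell to 1000 non-collagen UMIs, or 3000 where stated. Clusters came from 2000 variable genes, 30 principal components, 15 neighbours and the Leiden method at resolution 0.6. Collagen, mitochondrial and ribosomal protein genes, *Gm42418*, *AY036118*, *Malat1* and *Il1rap* were left out before variable genes were chosen. No doublet caller was run, the gate limited myeloid genes, and an alternative left out gated cells above the 95th percentile of UMIs. Alternatives changed the totals, gate limits, *Col1a1* threshold, reference cells (also weighted to clusters), level and fold. Those without cluster 15, without shared barcodes, and at 100 UPM or 7% on Day 7 were chosen after seeing the data. Scripts were tested on simulated data and used python 3.11.15, numpy 2.4.6, scipy 1.17.1, pandas 2.3.3, scikit-learn 1.9.0, igraph 0.11.9, leidenalg 0.10.2 and matplotlib 3.10.9. Counting by 3′ tags does not separate isoforms, and genes with near-identical copies or overlapping neighbours may share reads.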

Additional observations from a re-analysis of the deposited data

Results flagged for a closer look

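Of 2596 genes compared on both days, 22 were past 1.5-fold in opposite directions with neither day's interval reaching equal levels. All 22 were lower on Day 14 and higher on Day 7, and 4 of these belong to the lists used here. *C3*, the complement component, was lower by log2 -1.10 on Day 14 (75.4 against 162 UPM) and higher by 0.83 (0.56 to 1.08) on Day 7 (761 against 429). For *Col6a6*, a type VI collagen chain, the log2 ratio of -2.12 stood beside 1.0 (0.34 to 1.59, from 23 UMIs) in the Day 7 library. *Cygb*, which encodes cytoglobin, had -2.12 and, among Day 7 cells, 0.75 (0.38 to 1.1). *Vcam1*, an adhesion molecule, had -0.94 and, with 83 UMIs among Day 7 cells, 1.37 (1.04 to 1.68). Against a reference weighted to clusters the Day 14 ratios of *C3* and *Vcam1* were -0.38 and -0.35, inside the fold but still negative. Those of *Col6a6* and *Cygb* were -1.13 and -1.36. Day 7 cells were not clustered, so the Day 7 ratios have no such weighted value beside them. *C3* also had -0.49 against only the reference cells with *Col1a1* at 5% to 9%. The Day 7 values rest on 27 cells of 1 library, and the difference between the days was not tested.

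Outside the fibroblast gate, 161 of the 886 Day 14 barcodes with *Col1a1* at 9% or more of UMIs were not used. Of them 108 had under 2000 UMIs, 109 had over 10% mitochondrial UMIs and 6 passed the myeloid limit, with medians of 1629 UMIs and 11.9% mitochondrial UMIs.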

How the results depend on the processing

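Counts of 433 genes higher and 1136 lower on Day 14 became 236 and 2022 on totals of all UMIs, 146 and 576 with a reference weighted to clusters, 145 and 407 at a level of 50 UPM, 1008 and 2709 at 1 UPM, 976 and 2321 with a fold smaller than 1.5, and 178 and 579 with a fold of 2. Those levels and folds count other sets of genes by construction. The 13 other settings gave 396 to 481 higher and 821 to 1332 lower. The share of 10.1% was 12.9% at a threshold of 8%, 7.95% at 10%, 9.19% with at most 5% mitochondrial UMIs and 9.28% without cluster 15. On Day 7 counts of 1078 and 2179 became 563 and 2785 on totals of all UMIs, 152 and 287 at a level of 100 UPM, and 249 and 843 at a threshold of 7%. Of 404 genes, 191 were called and 6 of these changed sign, all with the reference weighted to clusters: *Csf1* (-0.20), *Matn4* (-0.0068), *Sema3c* (0.044), *Anxa3* (0.019), *Bmp4* (-0.10) and *Twist2* (-0.13), on the log2 scale. Of the other genes, not called, 102 changed sign under at least 1 setting. The cause was not tested.

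No paired analysis was possible because each day is 1 library with no replicate. The Day 7 values rest on 27 cells, and intervals leave out the spread between animals.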
